A study of Mus musculus with 3 samples.

Results

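Genes of iron storage, transport and sensing, 10 in all, were examined in polyadenylated RNA of mouse macrophages. They are the ferritin chains Fth1 and Ftl1, the exporter Slc40a1, the importers Tfrc, Slc11a1 and Slc11a2, the haem-degrading enzyme Hmox1, the iron regulators Ireb2 and Aco1, and the ferritin turnover receptor Ncoa4. The members were picked by gene symbol for their known roles, with earlier results of these data known. All 10 of 10 symbols were found among the 55536 annotated genes (22028 of them protein-coding). The cells were primary macrophages grown from bone marrow of C57BL/6J mice, a strain that carries a loss-of-function allele of Slc11a1. All 3 libraries had the same treatment: lipid A, the part of bacterial lipopolysaccharide sensed by the receptor TLR4, at 100 ng/ml for 12 h, a washout of 12 h, and lipid A again at 100 ng/ml for 480 min. The treatment fields name lipoprotein A instead, and the written description is followed here. Each library was made from 1 µg of RNA. Sex and age were not collected. The libraries are numbered biological replicates 1, 2 and 3, share 1 donor record and form 1 group. The labels do not say whether they came from separate animals, so the spread between them may be technical. No untreated library was analysed here, and no effect of lipid A can be given. Levels, their spread and comparisons within a library follow.

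Iron in cells is held in a balance of storage, uptake and export. Ferritin, a hollow shell of heavy and light chains, stores iron. The heavy chain oxidises it and the light chain helps it to form a mineral core. When iron is scarce, the iron regulatory proteins encoded by Aco1 and Ireb2 bind a stem-loop called the iron-responsive element. Bound in a 5′ untranslated region, as in ferritin and ferroportin (Slc40a1) mRNA, they block translation. Bound in the 3′ untranslated region of the transferrin receptor mRNA (Tfrc), they protect it from decay. Macrophages recycle the iron of aged red cells, and inflamed macrophages are known to retain iron.

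The elements that set this control are shown because transcripts of one gene can differ in carrying one. A search of the untranslated regions of coding GENCODE M21 transcripts found 9 distinct sites in 5 of the 10 members. Transcripts of other classes, such as retained-intron forms and those annotated for nonsense-mediated decay, were not searched. The search asked for a C, 5 bases that pair (G with T allowed), a loop of 6 bases, and the 5 pairing bases, with at most 1 extra unpaired base on the 3′ side. The loop was CAGNGN with A or T at its first N and any base but G at its second. Loops are in capitals below, and all sequences are mm10, 5′ to 3′ on the transcript's strand, written with T for U.

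Fth1, 5′ UTR, chr19:9982732-9982760, plus strand: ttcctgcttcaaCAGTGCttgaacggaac
Ftl1, 5′ UTR, chr7:45459779-45459807, minus strand: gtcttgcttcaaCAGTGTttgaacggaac
Slc40a1, 5′ UTR, chr1:45925465-45925493, minus strand: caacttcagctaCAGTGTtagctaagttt
Tfrc site 1, 3′ UTR, chr16:32631160-32631188, plus strand: atttatcagtgaCAGAGTtcactataaat
Tfrc site 2, 3′ UTR, chr16:32631219-32631247, plus strand: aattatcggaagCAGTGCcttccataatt
Tfrc site 3, 3′ UTR, chr16:32631598-32631626, plus strand: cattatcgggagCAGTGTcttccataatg
Tfrc site 4, 3′ UTR, chr16:32631663-32631691, plus strand: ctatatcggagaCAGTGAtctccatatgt
Tfrc site 5, 3′ UTR, chr16:32631710-32631738, plus strand: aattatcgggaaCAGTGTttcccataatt
Slc11a2, 3′ UTR, chr15:100395152-100395181, minus strand: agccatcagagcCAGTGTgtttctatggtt

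The ferritin sites of Fth1 and Ftl1 were identical at 26 of 29 positions, although they lie on different chromosomes. The Slc40a1 site shared 13 of 29 positions with that of Fth1 and 13 with that of Ftl1. Among the 5 Tfrc sites, sites 2 and 3 were most alike, with 25 of 29 positions identical. The Slc11a2 site was the only one of the 9 that needed the extra unpaired base. Of 21866 protein-coding genes with a coding transcript, 665 (3.04%) held such a match in an untranslated region, 0.709% in the 5′ and 2.34% in the 3′ region. These regions differ in length between genes, and a match is a description of letters. No match was found in the untranslated regions of coding transcripts of Hmox1, Ireb2, Aco1, Ncoa4 or Slc11a1.

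Levels are given in TPM (transcripts per fixed total, corrected for length and depth), taken from the alignment-based quantification unless the index-based one is named. The libraries held 24596382, 54016971 and 43127749 expected counts in replicates 1, 2 and 3. Of 8 macrophage markers, 8 reached 1 TPM in every library, with summed levels of 13433 to 16269 TPM. Replicate 2 stood apart in mitochondrial mRNA, which took 16.76% of its TPM, against 2.590% in replicate 1 and 3.942% in replicate 3. This lowers the TPM of all other genes in replicate 2. In bulk RNA, fewer cells of a type and less RNA per cell cannot be told apart.

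The ferritin heavy chain dominated the iron genes. Fth1 (ENSMUSG00000024661.7, chromosome 19, 9980598 to 9985098, plus strand) stood at 69302.8, 50070.1 and 47099.5 TPM in replicates 1, 2 and 3. It ranked 1, 2 and 1 among the 10350 protein-coding genes that reached 1 TPM in at least 1 library, and the single gene above it in replicate 2 was mitochondrial. Its share of all counts was 3.218% in replicate 1 (95% Wilson interval 3.211% to 3.225%), 2.732% in replicate 2 (2.728% to 2.737%) and 2.207% in replicate 3 (2.203% to 2.212%). These intervals do not overlap, and they cover counting error only, since reads are not independent molecules. The mean was 55490.8 ± 12053 TPM (SD, n = 3).

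The light chain was the member that differed most between libraries. Ftl1 (ENSMUSG00000050708.16, chromosome 7, 45457944 to 45459884, minus strand) stood at 17396.2, 2685.62 and 16569.0 TPM in replicates 1, 2 and 3, so that replicate 2 lay far below the other 2 libraries. Its rank among the detected protein-coding genes was 4, 31 and 5. As a share of counts it took 0.8546% in replicate 1 (95% Wilson interval 0.8509% to 0.8582%), 0.1546% in replicate 2 (0.1536% to 0.1557%) and 0.8236% in replicate 3 (0.8209% to 0.8263%). The highest library held 6.478 times the lowest, the widest ratio among the 10 members, and the mean of 12216.9 ± 8265 TPM (SD, n = 3) became 16983 TPM without replicate 2. The index-based levels, 11554.7, 2765.12 and 14647.8 TPM, had the same low library.

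Heavy and light chains build one shell, so their ratio was taken within each library, where scaling cancels. Fth1 exceeded Ftl1 by 3.984 times in replicate 1, 18.64 times in replicate 2 and 2.843 times in replicate 3. The light chain thus made up 20.07%, 5.091% and 26.02% of ferritin TPM in replicates 1, 2 and 3. The index-based quantification gave 20.19%, 5.376% and 26.12%. The mean log2 ratio was 2.57 ± 1.45 (SD, n = 3). It was above 0 in all 3 libraries but not beyond 3 SD, and it was 1.75 without replicate 2. Both chains together held 8.670%, 5.276% and 6.367% of all TPM. Replicate 2 also carried the high mitochondrial share, whose part in the low Ftl1 level was not tested.

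**Figure D1:**
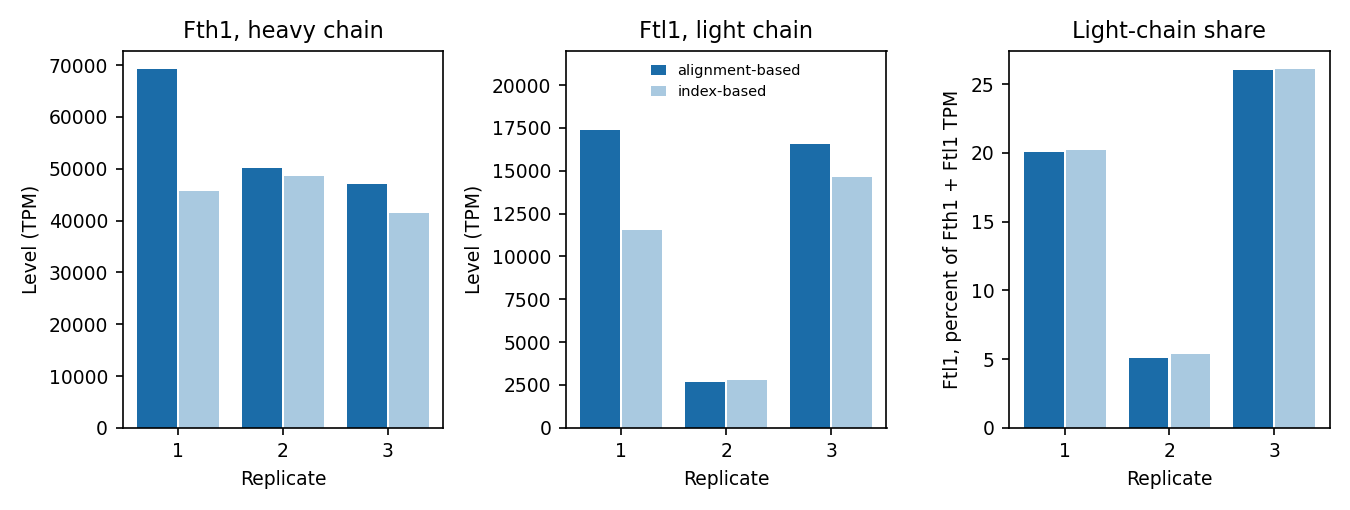
Bars give the Fth1 level (left, TPM), the Ftl1 level (middle, TPM) and Ftl1 as a percent of the TPM of both chains (right) in each of the 3 replicates, alignment-based left of index-based. Both quantifications put the light-chain share lowest in replicate 2, at 5.091% by alignment and 5.376% by index.

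Ferritin genes have many copies of similar sequence in the mouse genome, and reads shared by copies are divided by a model. A sequence match of at least 300 bases at 80% identity or more found 20 other genes for Ftl1 (17 of them pseudogenes) and 3 for Fth1 (all 3 pseudogenes). The copies of Ftl1 summed to 381.1, 92.12 and 273.5 TPM in replicates 1, 2 and 3. Ftl1 with all of them added stood at 17777.3, 2777.74 and 16842.5 TPM, so replicate 2 stayed lowest with the copies counted in. The copies of Fth1 summed to 8.810, 1.060 and 2.020 TPM, of which Gm6977 held most.

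The main copy was Ftl1-ps1 (chromosome 13, 74399694 to 74407346, plus strand), annotated as protein-coding and 99.56% identical to Ftl1 over 910 bases. It stood at 327.0, 11.11 and 202.9 TPM by alignment and at 26.96, 1.320 and 10.83 TPM by index. Its level thus rests on how shared reads were divided and is uncertain. Gm10252 (28.48 to 46.24 TPM by alignment, 3.710 to 9.803 TPM by index) lies across Ftl1 itself on the other strand. Gm47428 (18.01 to 40.83 TPM by alignment, 1.997 to 4.281 TPM by index) lies across Ftl1-ps1 on the other strand. Both were counted in the sum for the copies of Ftl1, at 46.24 and 34.77 TPM in replicate 2. Whether counting used strand is not given in the sources used here, so reads of these overlapping genes cannot be told apart. Of the pseudogenes of Ftl1, Gm15590 averaged 1.107 TPM by alignment and 3.706 TPM by index, and Ftl1-ps2 averaged 0.06667 and 1.032 TPM.

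Almost all ferritin RNA was the full coding form. Fth1-201 (929 bases) made up 99.14%, 99.35% and 99.29% of Fth1, and Ftl1-201 (968 bases) made up 99.27%, 98.95% and 99.05% of Ftl1 in replicates 1, 2 and 3. Adding the other Fth1 transcripts in which the element was found, 99.32% to 99.36% of Fth1 RNA carried the 5′ stem-loop printed above. This is a lower bound, since only coding transcripts were searched. The low Ftl1 level of replicate 2 was that of its main transcript, at 2657.54 TPM against 17269.1 TPM in replicate 1 and 16412.0 TPM in replicate 3. The form of Ftl1 annotated for nonsense-mediated decay, Ftl1-202, stood at 93.12, 24.78 and 138.3 TPM by alignment and at 74.08, 81.19 and 85.49 TPM by index, so its low value in replicate 2 depends on the quantification.

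The transport genes differed widely in level. Slc11a1 (ENSMUSG00000026177.11, chromosome 1, 74375195 to 74386062, plus strand) encodes NRAMP1, a transporter of iron and manganese in the phagosome membrane. It stood at 404.45, 233.40 and 457.28 TPM in replicates 1, 2 and 3, with a mean of 365.0 ± 117.0 TPM (SD, n = 3). Slc11a2 (ENSMUSG00000023030.16, chromosome 15, 100387898 to 100425072, minus strand), the related divalent metal transporter DMT1 of endosomes, stood at 77.27, 44.24 and 93.22 TPM, with a mean of 71.58 ± 24.98 TPM (SD, n = 3). Replicate 2 was lowest for both, and Slc11a1 exceeded Slc11a2 by 5.234, 5.276 and 4.905 times, a mean log2 ratio of 2.36 ± 0.06 (SD, n = 3). It was beyond 3 SD with 1 sign in all 3 libraries. By index the ratios spread more, at 4.106, 5.368 and 4.363 times, with a mean log2 ratio of 2.19 ± 0.20 (SD, n = 3) that was also beyond 3 SD. In alignment-based counts, without length correction, the ratios were 2.450, 2.610 and 1.952. The Slc11a1 level includes a processed transcript of 378 bases, Slc11a1-206, described below.

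The importer and the exporter of plasma iron lay nearer the middle of the detected genes, whose median was 15.09 TPM. Tfrc (ENSMUSG00000022797.16, chromosome 16, 32608920 to 32632794, plus strand), the transferrin receptor, stood at 16.77, 24.38 and 29.82 TPM, with a mean of 23.66 ± 6.555 TPM (SD, n = 3). Slc40a1 (ENSMUSG00000025993.10, chromosome 1, 45908068 to 45926523, minus strand), ferroportin and the known iron exporter of cells, stood at 14.24, 9.33 and 21.57 TPM, with a mean of 15.05 ± 6.160 TPM (SD, n = 3). Slc40a1 was below Tfrc in each library, at log2 ratios of -0.23, -1.38 and -0.47. The mean ratio of -0.69 ± 0.60 (SD, n = 3) did not reach 3 SD. Both genes had at least 756.0 counts in each library, so counting error is small beside this spread.

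Haem oxygenase and the ferritin turnover receptor lay below the ferritins and above Slc11a2 and Tfrc. Hmox1 (ENSMUSG00000005413.8, chromosome 8, 75093621 to 75100589, plus strand), which releases iron from haem, stood at 232.2, 265.7 and 331.9 TPM, with a mean of 276.6 ± 50.76 TPM (SD, n = 3). It was one of 2 members, with Tfrc, that were lowest in replicate 1. The constitutive enzyme Hmox2 stood at 194.07, 204.91 and 267.62 TPM, and Hmox1 exceeded it by 1.196, 1.297 and 1.240 times. This log2 ratio of 0.31 ± 0.06 (SD, n = 3) was beyond 3 SD. By index it was 0.12 ± 0.09 (SD, n = 3), with ratios of 1.029, 1.163 and 1.075, and no longer beyond 3 SD. Ncoa4 (ENSMUSG00000056234.15, chromosome 14, 32159865 to 32179855, plus strand), the receptor that delivers ferritin to the lysosome, stood at 167.4, 99.77 and 132.0 TPM, with a mean of 133.1 ± 33.83 TPM (SD, n = 3). Relative to Fth1, its log2 ratio was -8.71 ± 0.25 (SD, n = 3), beyond 3 SD.

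The genes of the iron regulatory proteins also lay near that median. Ireb2 (ENSMUSG00000032293.8, chromosome 9, 54863789 to 54912530, plus strand), which encodes IRP2, stood at 18.58, 12.67 and 16.60 TPM (mean 15.95 ± 3.008, SD, n = 3). Aco1 (ENSMUSG00000028405.9, chromosome 4, 40143081 to 40198338, plus strand), which encodes IRP1, a protein that is a cytosolic aconitase when it holds an iron-sulfur cluster, stood at 14.86, 12.74 and 20.01 TPM (mean 15.87 ± 3.739, SD, n = 3). Neither was the higher in all libraries: the log2 ratio of Ireb2 to Aco1 was 0.32, -0.01 and -0.27, with a mean of 0.01 ± 0.29 (SD, n = 3). Of the 6 pairs of genes compared, 3 were beyond 3 SD by alignment, and 2 of these also by index, where Hmox1 over Hmox2 was not. No p-value is given for the pairs, since with 3 libraries the smallest that an exact sign-flip test allows is 0.25.

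**Figure D2:**
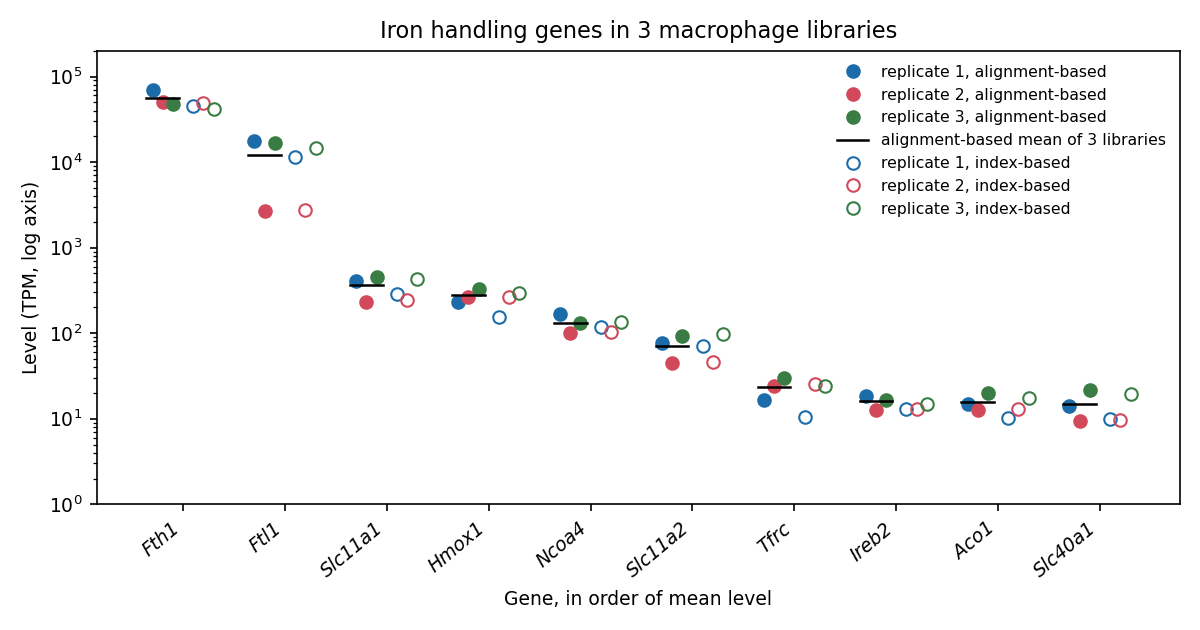
Points give the level of each gene (TPM, log axis) in replicates 1, 2 and 3, filled for the alignment-based and open for the index-based quantification, with a bar at the alignment-based mean. Fth1 and Ftl1 lie above all others, and Tfrc, Ireb2, Aco1 and Slc40a1 lie together between 9.33 and 29.82 TPM.

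The order of the mean levels was Fth1, Ftl1, Slc11a1, Hmox1, Ncoa4, Slc11a2, Tfrc, Ireb2, Aco1 and Slc40a1. The ranges of Slc11a1 and Hmox1 overlapped, as did those of Tfrc and Ireb2, of Ireb2 and Aco1, and of Aco1 and Slc40a1. The other 5 neighbouring pairs did not overlap and kept their order in all 3 libraries. All 10 members reached 1 TPM in every library, as did 91.2% of the 10350 detected protein-coding genes. Of the members, 5 had a mean of at least 100 TPM, against 12.1% of those genes. The detected genes were kept for reaching 1 TPM in at least 1 library. The members were chosen with earlier results of these data known, so these shares are descriptive. The median of the members was 102.3 TPM.

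Whether any member varied between libraries more than genes of like abundance was asked over 11932 genes, using the quasi-likelihood fit of edgeR. With Benjamini-Hochberg adjustment and a threshold of 0.05 the test called 0 genes, or 0% of those tested, and 503 genes had an unadjusted p under 0.05. Of the 10 members, 0 were called and 0 had an unadjusted p under 0.05. Ftl1 came closest, with a variance 3.930 times the trend (edgeR adjusted p = 0.9333). Its highest library held 6.478 times its lowest, yet its unadjusted edgeR p was 0.1027. With 3 libraries the test can thus miss a wide spread, and an absence of calls does not show that the spread was ordinary. The median variance was 0.4581 times the trend in the members and 0.8388 times in all genes tested. The p-values compare libraries of 1 group, not conditions.

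The spread was also taken on a scale without length correction. With TMM-scaled CPM (counts per fixed library total) in place of TPM, the coefficient of variation of Slc11a1 was 9.750%, against 32.06% in TPM. It was 9.380% against 18.86% for Ireb2, 11.88% against 23.56% for Aco1 and 18.57% against 34.90% for Slc11a2. For Ftl1 it was 61.57% against 67.65%, and for Fth1 24.85% against 21.72%. Rescaling also narrowed the spread of Slc40a1 (26.23% against 40.94%) and Ncoa4 (14.98% against 25.42%), but not that of Tfrc (29.53% against 27.71%) or Hmox1 (19.59% against 18.35%). Ftl1 had the widest spread of the 10 on both scales.

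How far a level rests on the quantification was asked by comparing both within each library. On the log2(TPM + 1) scale, limma called 40 of 10203 genes higher by alignment (0.392%) and 129 lower (1.26%), where a call needed an adjusted p below 0.05 and a difference of 1 or more in size. Of the members, 0 were higher and 0 lower. Their differences, alignment-based minus index-based, lay between -0.001558 for Slc11a2 and 0.29 for Tfrc, each with a standard error of 0.18 and limma adjusted p-values of 0.7430 to 0.9971. Replicate 1 was shifted as a whole, since the median difference of all genes was 0.42 there, against -0.05 in replicate 2 and 0.09 in replicate 3. In replicate 1 the index-based quantification gave 112763 TPM to Klf10-204, and in replicate 3 it gave 48974.8 TPM to Mir6236-201. Both transcripts were at 0 by alignment. Such an entry lowers the index-based TPM of every other gene in its library. Its part in these shifts was not tested.

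The transcripts of the members were compared in the same way. Over 26658 transcripts limma called 654 higher by alignment (2.45%) and 1305 lower (4.90%). Of 42 member transcripts named for a mean of at least 1 TPM or 10% of their gene, 4 were higher and 5 lower. Ncoa4-202 was higher by 2.27 on the log2 scale (limma adjusted p = 0.002164) and Tfrc-204, a retained-intron form, by 2.04 (limma adjusted p = 0.002237). The retained-intron forms Fth1-207 and Fth1-202 were higher by 1.79 and 1.16. Fth1-204 fell by 2.66 and Slc11a1-211 by 1.51, where a fall means lower by alignment. The retained-intron forms Ftl1-206, Slc11a1-204 and Hmox1-202 also fell, by 1.93, 1.07 and 1.07. Without replicate 1, 0 of all transcripts were called, while 200 genes were. The differences of the 9 member transcripts kept their sign and were of similar size there, for example 2.027 for Ncoa4-202 and -2.912 for Fth1-204, with limma adjusted p-values of 0.1240 or more. With each library centred on its median, 573 transcripts were called in all. Fth1-204 (-2.774), Slc11a1-204 (-1.185) and Hmox1-202 (-1.184) then missed the threshold. With a pseudocount of 0.1, Fth1-202 (1.178), Fth1-204 (-3.388), Slc11a1-204 (-1.184), Slc11a1-211 (-2.601) and Tfrc-204 (4.172) missed it.

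The transferrin receptor RNA was mostly the form in which the 5 stem-loops were found. Tfrc-201 (4890 bases) stood at 12.36, 20.63 and 19.39 TPM, or 73.71%, 84.59% and 65.01% of the gene in replicates 1, 2 and 3. Tfrc-204 held most of the rest, at 4.41, 2.19 and 9.33 TPM by alignment. As a retained-intron form it was not searched for the element, so whether it carries stem-loops is not given. By index Tfrc-204 was at 7.82e-05, 0 and 1.562 TPM, and Tfrc-201 made up 88.35% or more of the gene. In ferroportin RNA, Slc40a1-201 with its 5′ stem-loop made up 97.95%, 95.23% and 94.44%.

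DMT1 RNA was split between forms with and without the element. Slc11a2-205 (4415 bases), which ends in the 3′ region with the stem-loop, stood at 20.61, 19.29 and 24.21 TPM in replicates 1, 2 and 3. Slc11a2-201 (3025 bases), in which no element was found, stood at 43.82, 16.62 and 54.62 TPM. By index Slc11a2-205 stood at 13.87, 19.62 and 20.37 TPM and Slc11a2-201 at 29.15, 16.83 and 47.73 TPM. In both quantifications Slc11a2-201 was lowest in replicate 2, the only library in which it lay below Slc11a2-205. The share of Slc11a2-205 in the gene was 26.67%, 43.60% and 25.97% by alignment and 19.72%, 42.60% and 20.62% by index. Replicate 2 was highest in both quantifications.

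NRAMP1 and NCOA4 RNA was split over several transcripts. Slc11a1-201 (2315 bases, coding) stood at 213.87, 145.38 and 208.66 TPM, or 52.88%, 62.29% and 45.63% of the gene. Slc11a1-206, a processed transcript of 378 bases, stood at 134.45, 53.45 and 193.18 TPM, or 33.24%, 22.90% and 42.25%. Both quantifications gave Slc11a1-206 its lowest level in replicate 2, with 84.13, 48.71 and 176.1 TPM by index. Ncoa4-201 (3343 bases, coding) held 57.71%, 58.74% and 50.85% of Ncoa4, and the short coding form Ncoa4-203 (462 bases) held 27.94%, 19.41% and 28.45%. Ncoa4-202 (4065 bases, coding) stood at 13.39, 20.75 and 17.45 TPM by alignment, against 1.144, 5.542 and 2.693 TPM by index. Of the remaining genes, Hmox1-201, Ireb2-201 and Aco1-201 each made up at least 97.51% of their gene in every library.

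The other 19 member transcripts that met the rule for naming are given here by their alignment-based means. Fth1-203, Fth1-206, Fth1-208 and Fth1-209 averaged 2.167 to 44.71 TPM. Fth1-209 was highest in replicate 1 in both quantifications, at 112.5, 5.13 and 16.55 TPM by alignment and 457.8, 8.901 and 10.48 TPM by index. Ftl1-203, Ftl1-204 and Ftl1-205 averaged 1.187 to 9.057 TPM. Slc11a1-202, Slc11a1-203, Slc11a1-205, Slc11a1-207, Slc11a1-208 and Slc11a1-210 averaged 0.5233 to 22.81 TPM, led by the processed transcript Slc11a1-207. Slc11a2-203, Slc11a2-204, Slc11a2-206 and Slc11a2-207 averaged 0.9733 to 4.953 TPM, and Ncoa4-204 and Ncoa4-208 averaged 1.917 and 4.033 TPM. Some held a larger share of their gene in single libraries. Slc11a2-207 held 1.780%, 15.48% and 7.120% by alignment and 3.275%, 16.23% and 15.21% by index. By index Slc11a2-204 held 19.01%, 1.841% and 7.020%, and Slc11a2-203 held 12.64%, 1.216% and 4.332%. Ncoa4-208 held 7.380%, 1.673% and 11.77% by index.

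**Figure D3:**
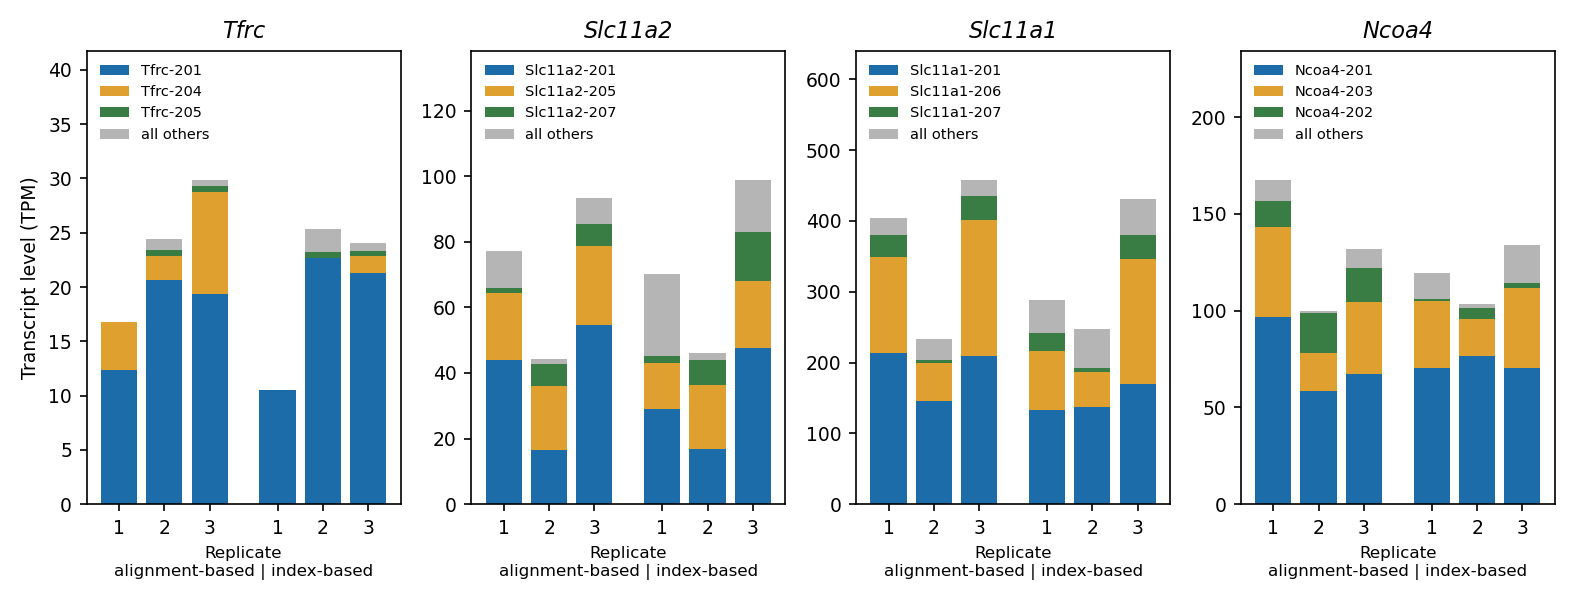
Stacked bars give the level (TPM) of the 3 most abundant transcripts and of all others for Tfrc, Slc11a2, Slc11a1 and Ncoa4 in replicates 1, 2 and 3, alignment-based left of index-based. In Slc11a2, the part of Slc11a2-201 is shortest in replicate 2 in both quantifications.

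The wider iron system was described with a list of 74 genes in 8 groups, of which 73 were found by symbol. In all 3 libraries 53 of them (72.6%) reached 1 TPM, against 91.2% of the detected protein-coding genes. No group was tested against that share. Of the 73, 12 (16.4%) averaged 100 TPM or more, against 12.1% of detected protein-coding genes. Their median was 10.32 TPM, against 15.09 TPM for the detected genes. The way the detected genes were chosen raises their side of each comparison, the share at 1 TPM above all. Those genes were kept for reaching 1 TPM in at least 1 library, and the list was not filtered. In the tests above, 0 of 56 wider genes were called for excess variance and 0 of 54 between quantifications in either direction. Lrp1 missed the second call by size only, with a difference of 0.68 on the log2 scale (limma adjusted p = 0.006549).

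Of 7 genes of iron chaperones, storage and ferritin turnover, 6 reached 1 TPM in every library. Pcbp2, a chaperone that carries iron to ferritin, stood at 397.82, 426.87 and 463.22 TPM (mean 429.3 ± 32.77, SD, n = 3). The related chaperone Pcbp1 averaged 134.7 ± 41.32 TPM, and the autophagy adaptor Tax1bp1 averaged 124.6 ± 24.40 TPM (SD, n = 3). Fbxl5, the ubiquitin ligase subunit that marks IRP2 for decay, stood at 14.36 ± 2.089 TPM (SD, n = 3). Mitochondrial ferritin Ftmt had 0 counts in all libraries. For replicate 1 the limit of 3 counts is then 0.1481 TPM.

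In uptake and recycling of transferrin iron, 7 of 12 genes reached 1 TPM in every library. Snx3, which returns the transferrin receptor from endosomes, stood at 176.20, 468.51 and 214.02 TPM, highest in replicate 2 (mean 286.2 ± 159.0, SD, n = 3). The receptor homologue Tfr2 and the reductase family member Steap1 had 0 counts in all libraries by alignment. Their limits were 0.1247 and 0.2468 TPM in replicate 1. By index Tfr2 stood at 0, 0 and 0.3109 TPM in replicates 1, 2 and 3, against a limit of 0.06884 TPM in replicate 3. Of 8 genes measured in export and the hepcidin axis, 1 reached 1 TPM in every library. It was Cp, the ferroxidase ceruloplasmin, at 114.86, 166.24 and 118.73 TPM (mean 133.3 ± 28.61, SD, n = 3). The other ferroxidases Heph and Hephl1, and Hamp2, Tmprss6 and Erfe of the hepcidin axis, had 0 counts in each library. The limits in replicate 1 lay between 0.03523 TPM for Hephl1 and 0.9983 TPM for Hamp2.

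Of 12 genes of haem uptake, transport and breakdown, 8 reached 1 TPM in every library. Besides Hmox2 (222.2 ± 39.71 TPM), the biliverdin reductase Blvrb averaged 182.9 ± 37.61 TPM and the haemopexin receptor Lrp1 averaged 112.2 ± 41.21 TPM (SD, n = 3). By index Lrp1 averaged 71.35 ± 33.22 TPM. Of 9 haem synthesis genes, 8 reached 1 TPM in every library. The housekeeping first enzyme Alas1 led them at 156.13, 94.58 and 188.33 TPM, and its erythroid counterpart Alas2 had 0 counts in all libraries (limit 0.1781 TPM in replicate 1). Of the 8 erythroid markers, which include Alas2, 0 reached 1 TPM in every library and 6 had 0 counts, with summed levels of 0, 0.1 and 0.29 TPM in replicates 1, 2 and 3. The defining globins Hbb-bs, Hbb-bt, Hba-a1 and Hba-a2 were at 0.

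All 16 genes of mitochondrial iron and iron-sulfur clusters reached 1 TPM in every library, with means of 2.523 to 87.59 TPM, and 0 of them averaged 100 TPM. In iron withholding, Lcn2, the protein that binds bacterial iron carriers, stood at 179.64, 47.16 and 74.80 TPM (mean 100.5 ± 69.89, SD, n = 3), highest in replicate 1. Ltf, a neutrophil granule protein, averaged 0.1633 TPM, and the 6 neutrophil markers summed to 0.94, 5.61 and 0.43 TPM. Of 7 regulators of iron genes, 6 reached 1 TPM in every library. The nuclear receptor Nr1h3 averaged 212.9 ± 44.28 TPM and Nfe2l2, which encodes NRF2, an activator of Fth1, Ftl1 and Hmox1, averaged 155.2 ± 18.30 TPM (SD, n = 3).

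**Figure D4:**
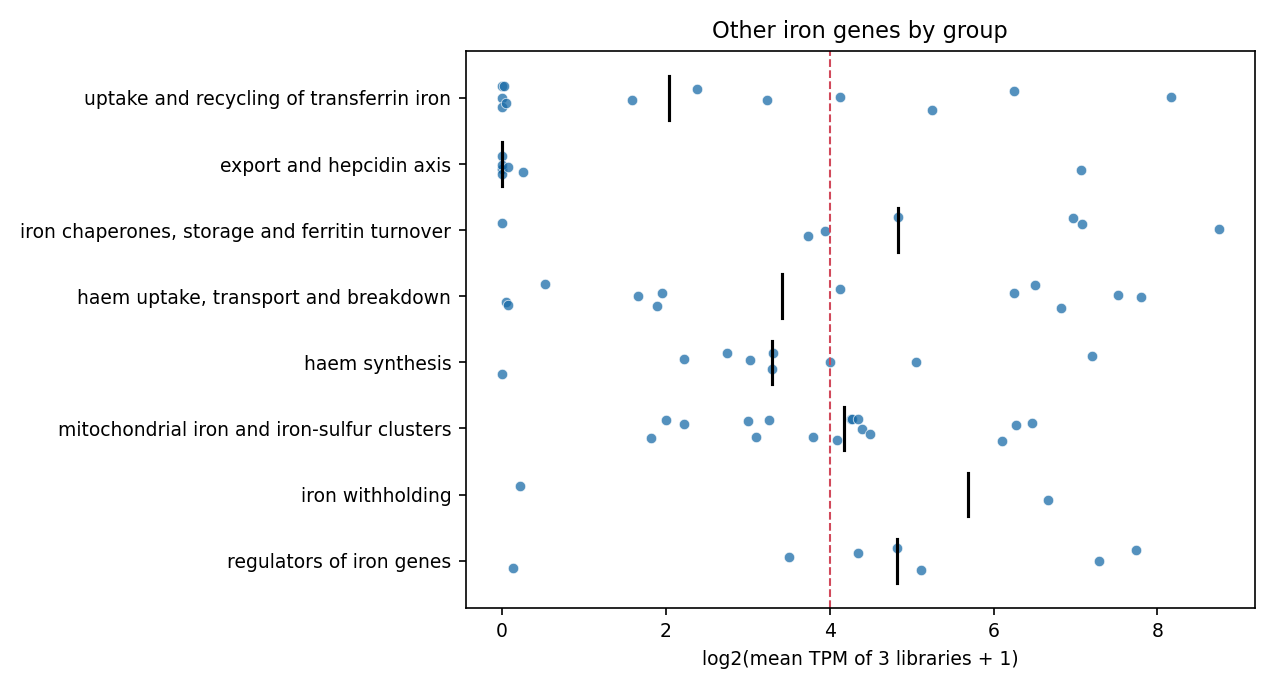
Each point is a gene of the wider iron list, placed at log2(mean TPM of 3 libraries + 1) within its group, with a bar at the group's median and a dashed line at the median of all detected protein-coding genes. The medians of iron chaperones, mitochondrial iron, iron withholding and regulators lie above the line, and the hepcidin axis has 7 of 8 genes near 0.

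Apart from Trf and the neutrophil marker Ngp, markers of other cell types were near 0. Ngp stood at 0.06, 4.97 and 0.07 TPM in replicates 1, 2 and 3, with 1, 207 and 2 counts. Of 4 fibroblast, 3 B cell and 3 T cell markers, 0 reached 1 TPM in every library. Of 5 hepatocyte markers, 1 did, namely Trf at 75.09 ± 11.29 TPM (SD, n = 3), which also belongs to the wider iron list. Of the other hepatocyte markers, Alb, Apoa1 and Ttr had 0 counts in each library. Hamp had 1, 0 and 1 counts in replicates 1, 2 and 3.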

How the data were processed

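Polyadenylated RNA of 3 libraries in 1 group was analysed. Per the labels and file headers, the deposited tables are on mm10 and GENCODE M21. The authors deposited expected counts and TPM per gene and transcript from alignments, with each transcript's percent of its gene, per the file headers. A second deposited table per library, made against a transcript index, holds estimated counts and TPM. Tool names, versions and strandedness: not given in the sources used here. Both assign ambiguous reads by a model.

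Other entries (26345 per gene table) took 0.08753%, 0.04642% and 0.06359% of counts and were left out. Index-based values were summed to genes. Expected counts were rounded for edgeR 4.0.16 (filterByExpr, TMM, quasi-likelihood fit with an intercept, one-sided F test of residual variance against the trend). Quantifications were compared with limma 3.58.1 on within-library differences of log2(TPM + 1), for protein-coding genes and their transcripts averaging 1 TPM or more by either method. Ratios used a pseudocount of 0.1. Copies were found with blastn 2.17.0. Scripts ran in R 4.3.3 and Python 3.11.15. The tests were also run on simulated data with a spread set in advance, which need not match that of these libraries. A gene at 0 was given a limit of 3 counts per library. Counts of 0 and these limits are those of the alignment-based quantification.

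The text names all members, their transcripts averaging 1 TPM or 10% of the gene in either quantification, ferritin copies averaging 1 TPM, and wider-list genes averaging 100 TPM or at 0 counts. Fbxl5, Trf, Ltf and the other genes named outside this rule were chosen after their values were seen. The members and lists were chosen with earlier results of these data known. Alternatives covered normalization, filters, pseudocounts, quantification and leaving out each library.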

Additional observations from a re-analysis of the deposited data

How the results depend on the processing

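No paired analysis was possible because all 3 libraries form 1 group, so replicate numbers pair no samples between groups. The members' call for excess variance did not change under any alternative run, and no member gene differed between quantifications under any. The number of genes with excess variance was 64 with no filter on low counts and 7 to 20 when a library was left out, against 0 as reported, also with DESeq2 size factors, a robust prior and index-based counts. Genes called between quantifications numbered 258 with a pseudocount of 0.1 (52 higher, 206 lower), 0 with no filter and 85 with each library centred on its median (16 higher, 69 lower), which was chosen after seeing the data, and 177 to 200 when a library was left out. Transcripts called numbered 875, 0 and 573 under the same 3 settings (242 higher and 633 lower, 0, and 171 higher and 402 lower), and 0 to 3771 when a library was left out, with 0 without replicate 1 and 3771 without replicate 2. The cause of these changes was not tested. Differences near 0 changed sign: Ncoa4 to -0.01430 after centring and to -0.03503 without replicate 1 (highest 0.2318, without replicate 2), and Slc11a2 to 0.02587 without replicate 2 and 0.03884 without replicate 3 (lowest -0.06939, without replicate 1). By index-based TPM the log2 ratio of Slc11a1 to Slc11a2 was 2.19 and that of Hmox1 to Hmox2 was 0.12. By index-based TPM, all mean levels stayed within 1 SD of the reported value. Leaving out 1 of 3 libraries cannot move a mean by 1 SD, so those runs do not test the levels. Depth does not limit the members, which had at least 756.0 counts in each library.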
